A study of Mus musculus with 6 samples.

Results

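RNA splicing factors and RNA helicases were followed in RAW 264.7 cells, a mouse macrophage line, 1 h after lipopolysaccharide (LPS) and LPS-binding protein (LBP). The group was taken by name: every gene whose only annotated symbol begins with Hnrnp, Srsf, Sf3, Snrp, Dhx, or Ddx and a digit. This gave 63 genes of the 10698 named on the array, carried by 69 probes. Of these 63, 51 had a ratio on all 6 arrays through at least 1 probe and entered the test, 9 had ratios on some arrays, and 3 were listed at 0 on all of them.

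Treated cells received LPS, a glycolipid from the surface of Gram-negative bacteria, at 100 ng/ml together with LBP, a serum protein that hands LPS to its receptor, at 100 pM for 1 h. Untreated cells of the same line were cultured for the same 1 h. Total RNA of both was hybridised together on 6 dual-channel arrays, 3 with treated RNA in the dye Cy5 (forward arrays) and 3 with it in Cy3 (swapped arrays), each orientation numbered as sets 1 to 3. RAW 264.7 is 1 line, and 6 label fields write it as RAW 264.4. No label states that the sets came from separate cultures, and the p-values therefore cover the spread among these arrays, possibly technical only.

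Values are log2 ratios of treated over untreated RNA, so that 0 is no difference. Both arrays of a set were averaged, and a mean is given ± SD over 3 set averages. The sign was taken from labels that call the Cy5 sample the test. With this sign, 10 of 10 genes known to be induced by LPS were positive on all 6 arrays, with means from 1.16 (Ptgs2) to 5.13 (Egr1). An exact 0 was read as no ratio. A test was passed at a Benjamini-Hochberg adjusted p under 0.05 over all 8331 genes with complete ratios, from limma, which compares each mean with 0. The spread of each gene was drawn toward a value shared across genes. The labels do not tie same-numbered arrays to shared RNA, so whether set averages are the right replicates is unknown. The SD covers averages of 2 arrays and not the spread of single arrays. With the 6 arrays fitted as separate samples 1439 genes passed, against 1097 with set averages. No intensities were used, so the level of a gene, its signal over background and the line's identity by marker level were unknown. Of 8 macrophage markers in the fit, from -0.11 to 0.55, 1 rose and 0 fell. Of 5 lymphocyte markers, from -0.19 to 0.47, 2 rose and 0 fell, and the 1 fibroblast or epithelial marker measured was at -0.06. Fewer cells of a kind and less RNA per cell cannot be told apart in bulk RNA.

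Splicing removes introns from pre-mRNA in the spliceosome, a machine built from small nuclear ribonucleoproteins (snRNPs). Snrp genes encode proteins of these particles, and Sf3 genes encode the complex that holds the U2 particle on the branch site. SR proteins (Srsf) bind exons and mostly favour their inclusion, whereas hnRNP proteins coat nascent RNA and often oppose it. DEAD-box (Ddx) and DEAH-box (Dhx) proteins use ATP to remodel RNA and its complexes in splicing, ribosome assembly, export, translation and decay, and a few sense viral RNA. In macrophages, splicing of inflammatory transcripts and its control by phosphorylation of SR and hnRNP proteins are known to shape the response to LPS.

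Few of these genes passed the test after 1 h. Dhx40, Srsf5, Ddx50 and Ddx5 rose, and 0 of the 51 fell (limma, adjusted p under 0.05). That is 7.84% of the members, against 13.2% of all genes tested in either direction. Upward calls alone were 7.84% of the members and 6.96% of all genes, and downward calls were 6.21% of all genes. At an unadjusted p under 0.05, 7 members were higher and 2 were lower, against 13.1% of all genes higher, 14% lower and 27% in either direction. The adjusted count of 4 became 1 without set 1, 3 without set 2 and 2 without set 3. The median ratio was 0.01 over the 51 members and -0.01 over all genes. The median absolute ratio was 0.05 over the members and 0.07 over all genes, and the median SD over sets was 0.07 in both. Of the 51 means, 49 lay within 0.25 of 0, which was 96.1%, against 90.3% of all genes, and 1 member reached 0.5.

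**Figure D1:**
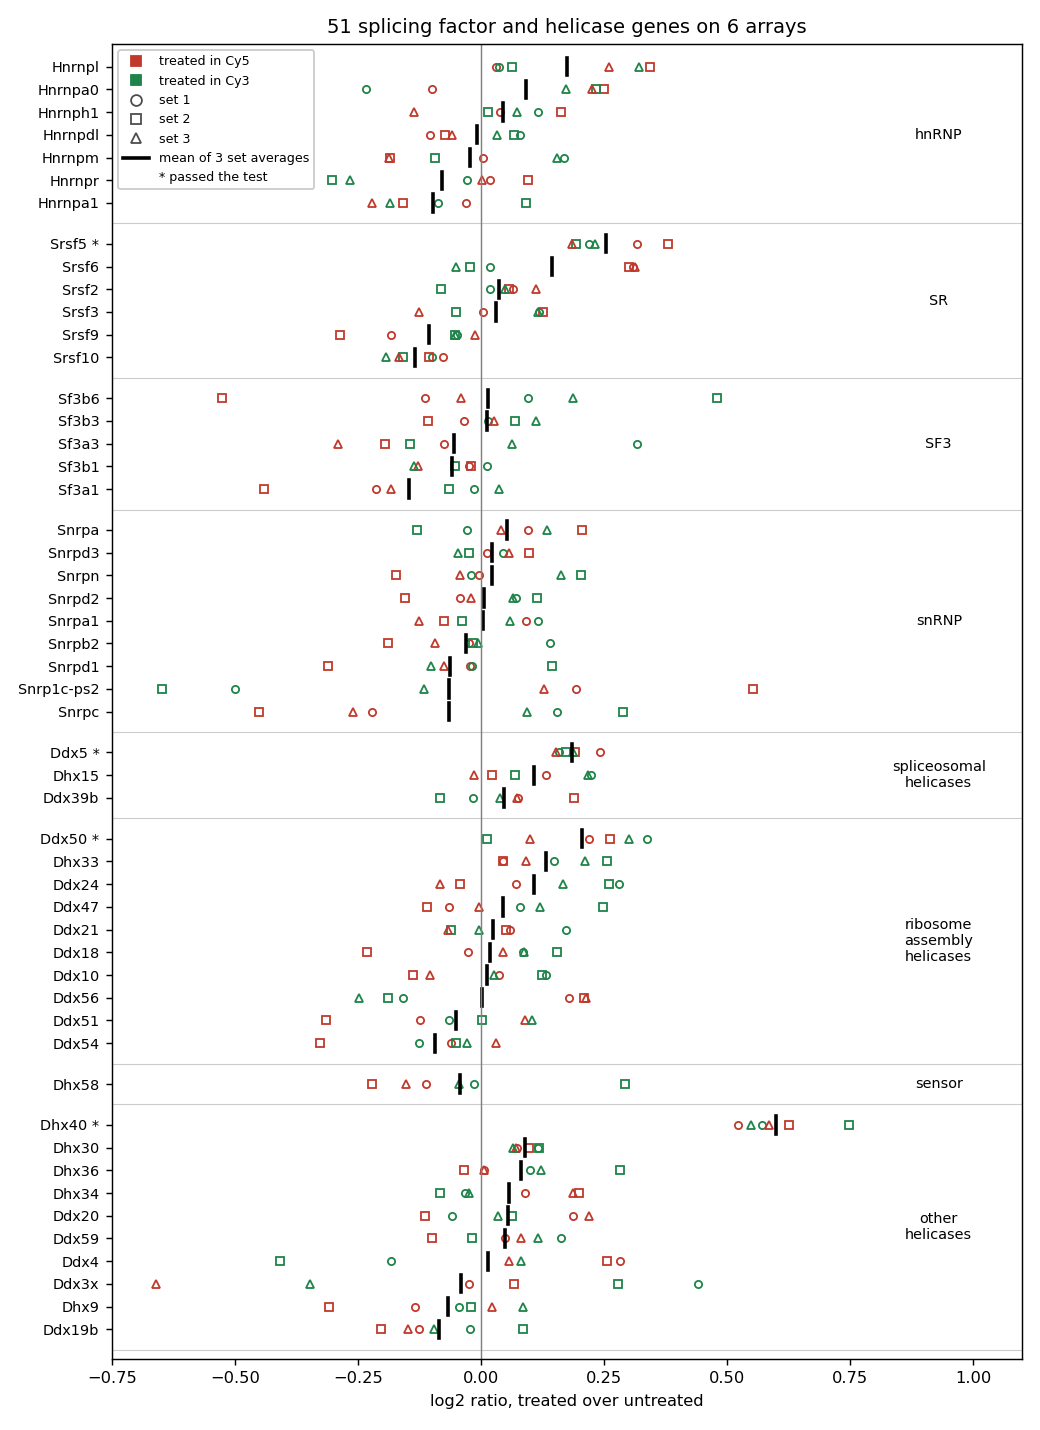
Log2 ratios of treated over untreated RNA (x axis) for the 51 genes with a ratio on all arrays, grouped by role. Each symbol is 1 array, colour gives the dye of treated RNA, shape gives the set, and the bar is the mean of 3 set averages. Dhx40 lies between 0.52 and 0.75 on all arrays, apart from the other genes, most of which straddle 0.

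**Figure D2:**
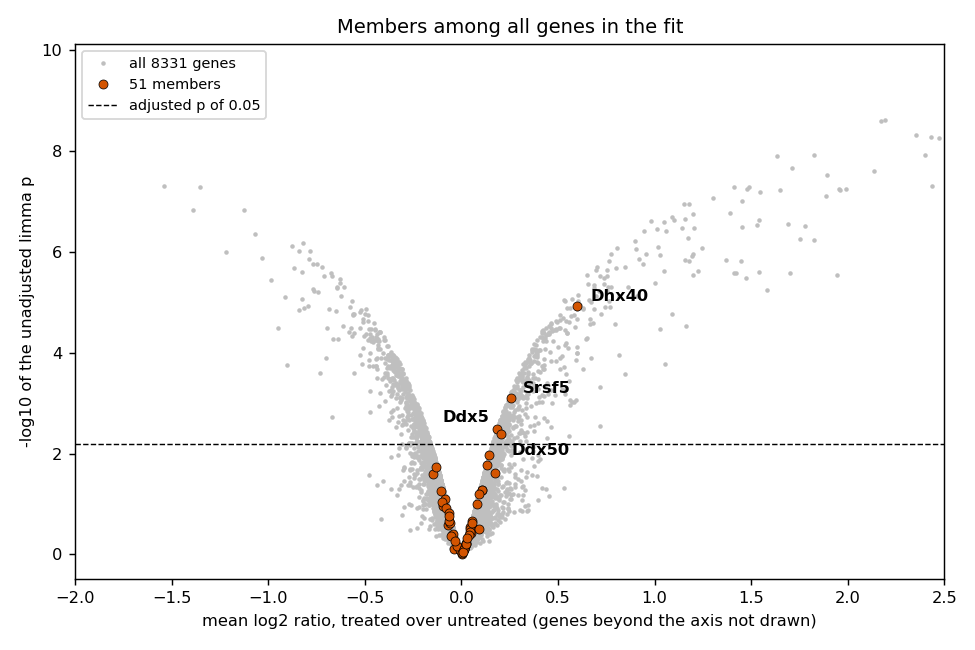
Mean log2 ratio (x axis) against the -log10 of the unadjusted limma p (y axis) for all genes in the fit (grey) and the 51 members (orange). The 4 named members lie above the dashed line, and the other 47 lie below it and near 0.

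Dhx40, a DEAH-box gene, rose most. Its ratios were 0.52, 0.63 and 0.59 on forward arrays and 0.57, 0.75 and 0.55 on swapped arrays, each in the order of sets 1 to 3. All 6 arrays were high and close together, and those of set 2 were highest in both orientations. The mean was 0.60 ± 0.08 (SD, n = 3), or 1.52-fold (limma, adjusted p = 0.00066, 95% interval 0.49 to 0.71). It passed the test under all 14 alternative settings, at 0.56 to 0.63.

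Srsf5, an SR protein gene, gave 0.32, 0.38 and 0.18 on forward arrays and 0.22, 0.19 and 0.23 on swapped arrays. The 6 values were positive, with a wider range on forward arrays. The mean was 0.25 ± 0.04, or 1.19-fold (limma, adjusted p = 0.0113, 95% interval 0.15 to 0.35). Without set 1 it averaged 0.25 and did not pass (limma, adjusted p = 0.0987), and on swapped arrays alone it averaged 0.21 and did not pass (adjusted p = 0.0831).

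Ddx50, a nucleolar helicase gene and the close relative of Ddx21, gave 0.22, 0.26 and 0.10 on forward arrays and 0.34, 0.01 and 0.30 on swapped arrays. The swapped array of set 2 was almost at 0 and the other 5 were higher. The mean was 0.20 ± 0.07, or 1.15-fold (limma, adjusted p = 0.0358). This call was the least stable of the 4, held under 6 of 14 settings, and was lost without set 1 (0.17, limma adjusted p = 0.206) and without set 3 (0.21, adjusted p = 0.0889). Ddx21, which acts in ribosomal RNA transcription and processing, averaged 0.02 ± 0.08 (limma, adjusted p = 0.772), with arrays from -0.07 to 0.17, and the difference between Ddx50 and Ddx21 was not tested.

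Ddx5, the p68 helicase gene that acts in splicing and as a transcription coactivator, had the least spread of these genes. Its ratios were 0.24, 0.19 and 0.15 on forward arrays and 0.16, 0.17 and 0.19 on swapped arrays. The mean was 0.18 ± 0.02, or 1.14-fold (limma, adjusted p = 0.0313). All 6 arrays were above 0, but the call was lost without set 1 (0.18, limma adjusted p = 0.183), set 2 (0.19, adjusted p = 0.0917) or set 3 (0.19, adjusted p = 0.0749), and on either orientation alone. A fit on 2 sets has fewer degrees of freedom, so a call can be lost there while the mean hardly moves.

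**Figure D3:**
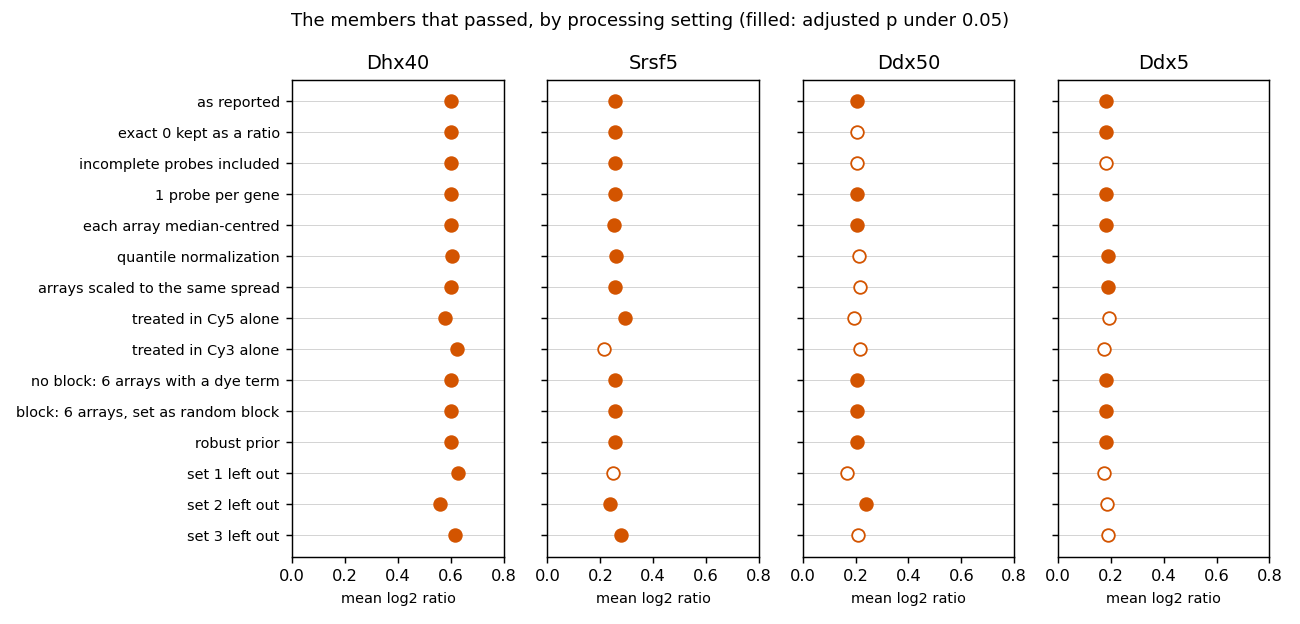
Mean log2 ratio (x axis) of the 4 genes that passed, under the reported processing and 14 alternatives (rows). Filled points passed the test and open points did not. Over the alternatives the means run from 0.56 to 0.63 for Dhx40, 0.21 to 0.29 for Srsf5, 0.17 to 0.24 for Ddx50 and 0.17 to 0.19 for Ddx5. Each gene has 1 probe, so rows that change only zeros, probes, the prior or the fit of separate arrays cannot move its mean. Dhx40 alone is filled throughout.

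The promoters of 3 of these 4 genes, and of Ddx21 for comparison with its relative, are shown because Srsf5, Ddx50 and Ddx21 share a stretch of letters close to their outermost listed starts. These are the 250 bases before the outermost transcription start listed by RefSeq (GRCm38.p6), 5′ to 3′ on the strand of the gene. Capitals mark TGACG, the core of the cAMP response element (CRE) that CREB and ATF factors bind, and CGGAAGT, a binding site of ETS factors, on either strand.
Dhx40, chr11:86807661-86807910, minus strand: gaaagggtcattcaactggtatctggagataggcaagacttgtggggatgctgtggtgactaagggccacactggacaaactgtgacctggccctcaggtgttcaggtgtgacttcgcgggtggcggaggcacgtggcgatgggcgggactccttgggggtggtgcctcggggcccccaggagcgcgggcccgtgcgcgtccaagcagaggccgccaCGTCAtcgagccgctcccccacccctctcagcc
Srsf5, chr12:80945249-80945498, plus strand: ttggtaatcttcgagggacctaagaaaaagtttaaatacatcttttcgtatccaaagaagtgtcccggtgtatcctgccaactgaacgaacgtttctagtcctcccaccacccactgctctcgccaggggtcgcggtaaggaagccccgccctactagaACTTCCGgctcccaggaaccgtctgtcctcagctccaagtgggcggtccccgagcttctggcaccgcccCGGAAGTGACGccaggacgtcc
Ddx50, chr10:62651219-62651468, minus strand: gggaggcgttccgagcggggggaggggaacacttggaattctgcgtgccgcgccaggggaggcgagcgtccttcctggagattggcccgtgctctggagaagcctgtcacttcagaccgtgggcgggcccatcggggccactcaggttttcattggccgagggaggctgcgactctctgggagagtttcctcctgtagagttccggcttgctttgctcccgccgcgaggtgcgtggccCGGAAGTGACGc
Ddx21, chr10:62602299-62602548, minus strand: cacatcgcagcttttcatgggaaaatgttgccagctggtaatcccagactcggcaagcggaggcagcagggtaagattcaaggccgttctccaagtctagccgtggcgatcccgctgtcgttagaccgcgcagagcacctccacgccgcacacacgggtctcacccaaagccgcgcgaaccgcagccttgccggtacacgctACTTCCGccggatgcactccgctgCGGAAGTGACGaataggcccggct

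CGGAAGT running into TGACG with a shared T, a joint stretch of 11 letters chosen after these sequences were read, occurred in 3 of the 63 promoter windows of measured members, those of Srsf5, Ddx50 and Ddx21. There TGACG began at -16, -6 and -18 from the start, in that order of genes. Ddx50 had 2 listed starts, and only the window of the outermost one held TGACG or CGGAAGT. The joint stretch was found in 0.344% of all 32851 windows and in 0.601% of the 8488 windows of genes in the fit. Of its 3 carriers, Srsf5 and Ddx50 passed the test and Ddx21 did not. TGACG occurred in 30 of the 63 member windows (47.6%), against 17.8% of all windows and 23.7% of those of genes in the fit. The share of G and C was 59.4% in member windows, 58.1% in windows of genes in the fit and 53.2% in all windows. CGGAAGT occurred in 9 member windows (14.3%), against 4.92% of all windows and 7.62% of those of genes in the fit. Dhx40 held TGACG once, at -33, and 0 copies of CGGAAGT, and the 3 windows of Ddx5 held neither. The NF-kappaB motif occurred in 2 member windows (3.17%), against 7.25% of all windows and 8.48% of those of genes in the fit, and in 0 of the 7 windows of the genes that rose. The AP-1 motif TGANTCA also occurred in 2 member windows (3.17%), against 6.75% of all windows and 5.78% of those of genes in the fit. The serum response CArG motif occurred in 0, against 1.47% of all windows and 1.33% of those of genes in the fit. The full CRE, TGACGTCA, which contains TGACG on both strands, occurred in 3 member windows (4.76%), 1.55% of all windows and 2.00% of those of genes in the fit. Both strands were searched, 48 of the 51 members had a window, some had several, and a match or its absence is a description of these letters only.

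Among SR proteins, 1 of 6 measured genes rose and 0 fell, beside 6.96% of all genes tested that rose and 6.21% that fell. Srsf6, named after its values were seen, gave 0.31, 0.30 and 0.31 on forward arrays but 0.02, -0.02 and -0.05 on swapped arrays, so that the orientations did not overlap. Its mean was 0.14 ± 0.02 (limma, adjusted p = 0.0678). It passed as higher on forward arrays alone (0.31, limma adjusted p = 0.0253) and when the 6 arrays were fitted as separate samples (adjusted p = 0.0194). Srsf10, whose protein represses splicing when dephosphorylated, was below 0 on all 6 arrays, from -0.19 to -0.08, and averaged -0.13 ± 0.05 (limma, adjusted p = 0.0971). It passed when the 6 arrays were fitted as separate samples (limma, adjusted p = 0.0334). Srsf9, named after its values were seen, was also below 0 on all arrays, from -0.29 to -0.01, at -0.11 ± 0.07 (limma, adjusted p = 0.197). Srsf2 averaged 0.04 ± 0.05 over probes at 0.01 and 0.06, and another probe was listed at 0 on all arrays. Srsf3, the smallest SR protein gene of the family, averaged 0.03 ± 0.03, with arrays from -0.13 to 0.13 on both sides of 0. Srsf1, an essential SR protein gene, had ratios of 0.61 and -0.05 on 2 forward arrays, the only ones that gave a ratio, and stayed outside the fit.

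None of the 7 measured hnRNP genes passed the test, beside 13.2% of all genes tested that passed in either direction. Their means ran from -0.10 to 0.18. The highest was Hnrnpl, which binds CA-rich RNA. Its ratios were 0.03, 0.34 and 0.26 on forward arrays and 0.04, 0.06 and 0.32 on swapped arrays, for a mean of 0.18 ± 0.13 (limma, adjusted p = 0.115). All 6 arrays were above 0, but those of set 1 were close to it. The lowest was Hnrnpa1, which promotes exon skipping, at -0.10 ± 0.09 (limma, adjusted p = 0.263), with 1 array above 0. Hnrnpm, known to hold back splicing of the Il6 transcript in mouse macrophages, averaged -0.02 ± 0.11 (limma, adjusted p = 0.821), and its 95% interval reached from -0.16 to 0.11. Of the 12 hnRNP genes annotated, 5 were outside the fit. Hnrnpab, Hnrnpc and Hnrnpk were listed at 0 on all arrays, Hnrnpu averaged 0.13 over 5 arrays and Hnrnpa2b1 averaged -0.01 over 4.

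All 5 Sf3 genes annotated on the array were measured, with means from -0.15 to 0.01. Of these, 0 passed, beside 13.2% of all genes tested that passed in either direction. Sf3a1, whose product is known to regulate splicing of Myd88 in the Toll-like receptor pathway of mouse macrophages, gave -0.21, -0.44 and -0.18 on forward arrays and -0.02, -0.06 and 0.04 on swapped arrays. The forward arrays were low and the swapped ones near 0, and the mean of -0.15 ± 0.09 did not pass (limma, adjusted p = 0.12). Sf3b1, the subunit that clamps the branch site, averaged -0.06 ± 0.07 (limma, adjusted p = 0.454). Sf3b6 averaged 0.01 ± 0.05, the mean of opposite values of -0.11, -0.53 and -0.04 on forward arrays and 0.10, 0.48 and 0.19 on swapped arrays.

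The 9 measured Snrp genes had means from -0.07 to 0.05, and 0 passed, beside 13.2% of all genes tested that passed in either direction. Snrpa, a protein of the U1 particle, averaged 0.05 ± 0.03 (limma, adjusted p = 0.453), and Snrpn, an imprinted relative of the core Sm proteins, averaged 0.02 ± 0.04 (adjusted p = 0.779). Snrpc, another U1 particle protein, gave -0.22, -0.45 and -0.26 on forward arrays and 0.15, 0.29 and 0.09 on swapped arrays, and averaged -0.07 ± 0.03. Snrp1c-ps2, annotated as a pseudogene and named after its values were seen, ran the other way, at 0.19, 0.55 and 0.13 on forward arrays and -0.50, -0.65 and -0.12 on swapped arrays. Within each gene the orientations did not overlap and had opposite signs, so the sign turned with the dye. Whether related sequences share signal on these probes was not tested. Snrpe, Snrpf and Snrpg, genes of core Sm proteins, lacked some arrays and averaged -0.07 over 4, 0.03 over 5 and -0.08 over 5 arrays.

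The helicases had 3 genes that rose among 24 measured, beside 6.96% of all genes tested that rose. Of 3 with a spliceosomal role, Ddx5 rose, Dhx15, which takes spliceosomes apart, averaged 0.11 ± 0.07 (limma, adjusted p = 0.19), and Ddx39b, which acts in spliceosome assembly and mRNA export, averaged 0.05 ± 0.01 (adjusted p = 0.508). Of 10 with a role in ribosome assembly, Ddx50 rose and 9 did not pass, from Ddx54 at -0.09 ± 0.10 (limma, adjusted p = 0.292) to Dhx33, named after its value was seen, at 0.13 ± 0.03 (adjusted p = 0.09). Dhx33 was above 0 on all 6 arrays, from 0.04 to 0.26, and passed when the 6 arrays were fitted as separate samples (limma, adjusted p = 0.0323).

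Dhx58, which encodes the antiviral sensor LGP2, averaged -0.04 ± 0.07 (limma, adjusted p = 0.604), with 5 arrays below 0 and 1 at 0.29. Among the other 10 measured helicases, Dhx40 alone rose, beside 6.96% of all genes tested that rose. Dhx9, an RNA and DNA helicase with roles in transcription and nucleic acid sensing, averaged -0.07 ± 0.11 (limma, adjusted p = 0.474), and Dhx36, which resolves G-quadruplexes, averaged 0.08 ± 0.04 (adjusted p = 0.275). Ddx6, a helicase of mRNA decay and P-bodies, had ratios of 0.28, 0.48 and 0.30 on the 3 arrays that gave one, all above 0, and stayed outside the fit. Dhx16, a spliceosomal helicase, averaged -0.06 over 5 arrays, and the testis helicase Ddx25 gave -0.51, 0.63 and 0.30 on 3.

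Ddx3x, a translation helicase that also takes part in interferon signalling, varied most between sets. Its ratios were -0.03, 0.07 and -0.66 on forward arrays and 0.44, 0.28 and -0.35 on swapped arrays. Set 3 was low in both orientations, and in every set the swapped array was above the forward one. The set averages were 0.21, 0.17 and -0.50, for a mean of -0.04 ± 0.40 (limma, adjusted p = 0.879), and without set 3 the mean was 0.19 (adjusted p = 0.0773). A second probe of Ddx3x had ratios on 2 arrays only, both of set 3, at 0.19 and 0.13, and another was listed at 0 on all arrays. The first probe was therefore the only one with a negative value in that set.

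For the 47 members that did not pass, the unadjusted 95% limma intervals give the mean ratios compatible with these arrays. They are not adjusted for the number of genes, so an interval can leave out 0 in a gene that did not pass. In 46 of the 47 members the limits lay between -0.27 and 0.32 on the log2 scale. The exception was Ddx3x, whose interval reached from -0.38 to 0.30. With the members that passed included, 48 of 51 intervals (94.1%) lay within 0.32 of 0 on both sides, against 83.9% over all genes in the fit.

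The dye orientation separated the arrays of several members. In 30 of 51 members (58.8%) the mean dye effect, the average of the ratios as deposited, was larger in size than the mean treatment effect, against 51.0% of all genes. With set averages 0 of 51 members passed a limma test of the dye effect, against 0.06% of all genes, and with the 6 arrays fitted separately Ddx56, Snrpc and Srsf6 did, against 3.32% of all genes. Ddx56, a ribosome assembly helicase named after its values were seen, gave 0.18, 0.21 and 0.21 on forward arrays and -0.16, -0.19 and -0.25 on swapped arrays. It therefore averaged 0.00 with a spread over sets of only 0.02. The same sign on all 6 arrays was seen in 9 members (17.6%), against 19.1% of all genes. They were the 4 that rose, Hnrnpl, Dhx33, Srsf10, Srsf9 and Dhx30, the last named after its values were seen and at 0.09 ± 0.02.

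**Figure D4:**
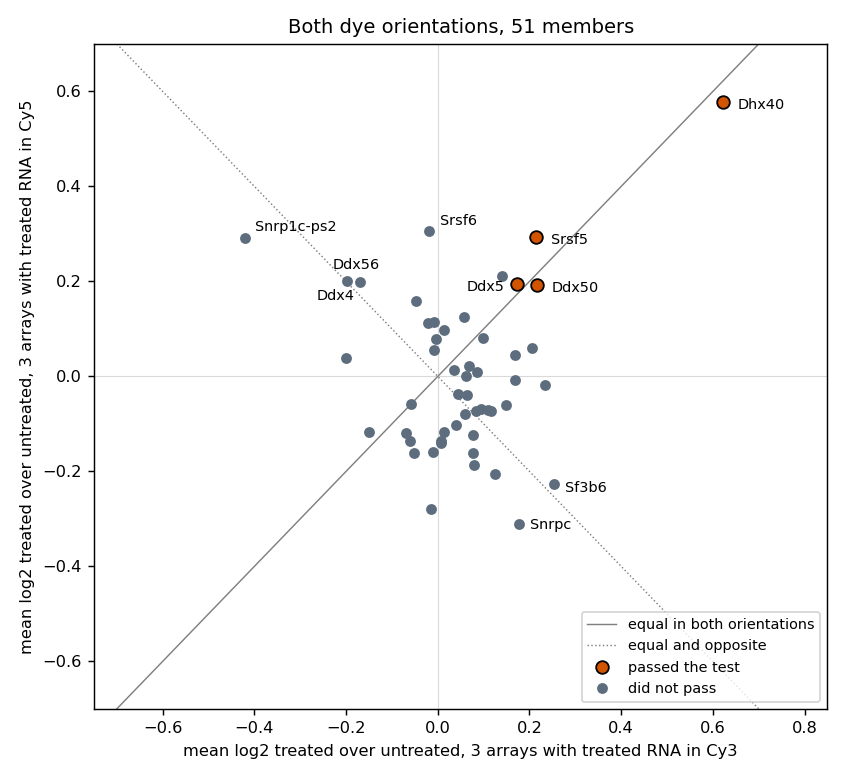
Mean log2 ratio of treated over untreated RNA on the 3 forward arrays, treated RNA in Cy5 (y axis), against the 3 swapped arrays, treated RNA in Cy3 (x axis), 1 point a gene. The 4 genes that passed lie near the solid line of equal values, whereas Snrp1c-ps2, Snrpc, Sf3b6, Ddx4 and Ddx56 lie near the dotted line of opposite values.

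Other genes of RNA processing were compared by lists that were chosen with earlier results of these data known. Spliceosome subunits outside the named families had 1 of 45 higher and 0 lower (2.22%), against 13.2% of all genes, and a median of 0.01. The 1 that rose was Luc7l2, a U1-associated protein gene, at 0.29 ± 0.10 (limma, adjusted p = 0.0163), a call lost without set 1. With zeros kept as ratios it was at 0.13 and did not pass (limma, adjusted p = 0.099), and it was also lost with incomplete probes and on swapped arrays alone. Splicing regulators outside these families had 3 of 36 higher and 0 lower (8.33%), with a median of 0.03. They were the nuclear matrix gene Matr3 (0.27 ± 0.12), Rbm25 (0.24 ± 0.07) and Elavl1, which stabilises AU-rich mRNAs (0.18 ± 0.04). Calls for Matr3 and Elavl1 were lost whichever set was left out, and that for Rbm25 without set 1 or set 2. Matr3, Elavl1 and Rbm25 passed under 7, 8 and 9 of 14 settings, in that order. Elavl1 averaged 0.29 on forward and 0.08 on swapped arrays. Of 9 genes of snRNP assembly 0 rose and 1 fell (11.1%). This was Coil, the scaffold of Cajal bodies, which fell by 0.22 ± 0.03 (limma, adjusted p = 0.0164). The call for Coil held under 11 of 14 settings and not without set 1.

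The kinases that phosphorylate SR proteins were listed with related kinases and phosphatase regulators. Of 11 measured, 5 rose and 1 fell, which was 54.5%, against 13.2% of all genes, with a median of 0.18. Clk4, a kinase that releases SR proteins from nuclear speckles, had ratios of 0.37, 0.54 and 0.34 on forward arrays and 0.38, 0.41 and 0.39 on swapped arrays. All 6 were high, its 2 probes averaged 0.40 and 0.41, and the mean of 0.40 ± 0.06, or 1.32-fold (limma, adjusted p = 0.00256), passed under all 14 alternatives. Ppp1r10, a nuclear regulator of protein phosphatase 1, rose by 0.60 ± 0.15 and also passed under all 14 alternatives, at 0.48 to 0.72.

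Clk3 rose by 0.31 ± 0.12 (limma, adjusted p = 0.0165) and passed under 9 of 14 settings, not without set 1. Srpk1, an SR protein kinase gene, rose by 0.20 ± 0.05 and Clk1 rose by 0.17 ± 0.03, each passing under 7 of 14 settings and not when any 1 set was left out. Both were named after their values were seen, as was Srpk2, which fell by 0.19 ± 0.04 (limma, adjusted p = 0.0317). The 2 probes of Srpk2 disagreed, at -0.45 and 0.06, and with 1 probe per gene it was at 0.06. It averaged -0.30 on forward and -0.09 on swapped arrays. Without set 1, 2 genes of this list passed upward and 0 downward, against 4 and 0 without set 2 and 3 and 0 without set 3.

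In the lists that follow splicing, 4 of 15 genes of cleavage and polyadenylation rose and 0 fell, among them Pcf11 (0.44 ± 0.05), Cstf3 (0.36 ± 0.03) and Rbbp6 (0.33 ± 0.04), all parts or partners of the 3′ end machinery. That was 26.7% of the list, against 13.2% of all genes in either direction. The 0.44 of Pcf11 averaged 2 probes that differed. With 1 probe per gene it was at 0.81 and passed, so the other probe lay below 0.44. With zeros kept as ratios Rbbp6 was at 0.19 and did not pass (limma, adjusted p = 0.0597). Papola, the poly(A) polymerase gene and chosen for mention once its value was known, rose by 0.22 ± 0.10, a call lost whichever set was left out. Of 12 genes of the exon junction complex, export and nonsense-mediated decay, 1 rose, Smg8 (0.16 ± 0.02), and 1 fell, Rbm8a, which fell by 0.28 ± 0.11 (16.7% called). The call for Smg8 held under 6 of 14 settings and was lost whichever set was left out. That for Rbm8a held under 8 of 14 and was lost without set 1 or set 2. Both depended on the orientation. Smg8 averaged 0.02 on forward and 0.31 on swapped arrays, and Rbm8a averaged -0.45 on forward and -0.10 on swapped arrays, of which 1 was at 0.08. Among helicases of other families 2 of 9 (22.2%) rose and 0 fell. Ifih1 rose by 0.54 ± 0.18 (limma, adjusted p = 0.00519) and passed under 13 of 14 settings. Eif4a1, the cap-dependent translation helicase, rose by 0.30 ± 0.09, a call held under 10 of 14 settings and not without set 1. Among partners of the RNA sensors 3 of 11 (27.3%) rose and 0 fell, with Ifih1 counted here again. The list was led by the kinase gene Ikbke at 0.71 ± 0.09, although with 1 probe per gene Ikbke was at 0.11 and did not pass.

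**Figure D5:**
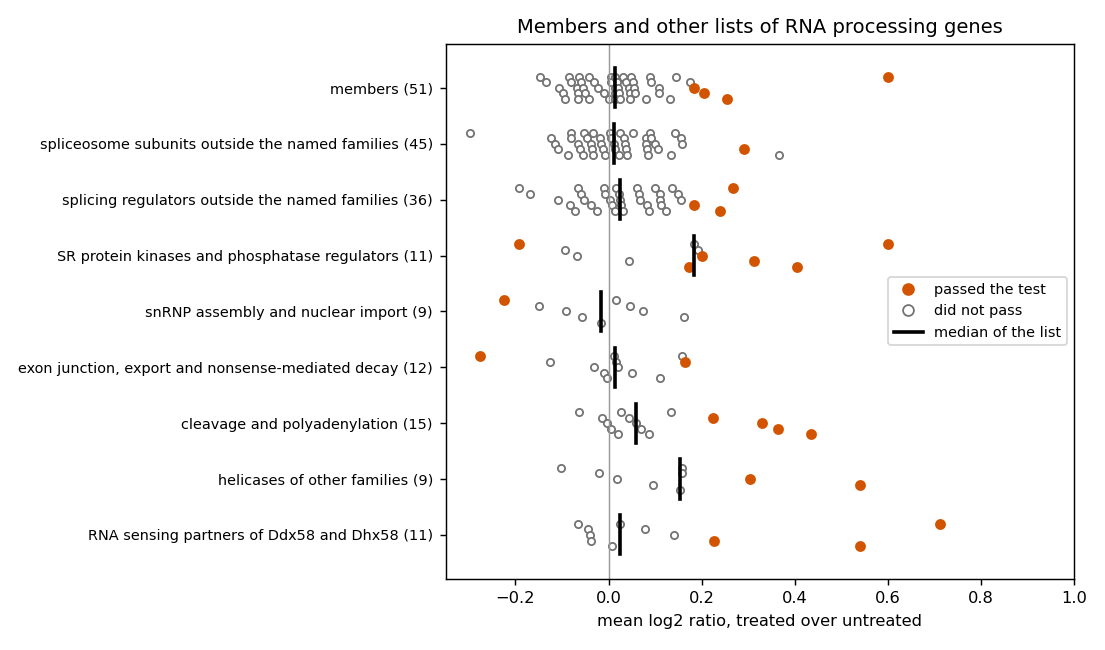
Mean log2 ratio (x axis) of the members and of 8 other lists of RNA processing genes (rows, with the number measured), 1 point a gene. Orange points passed the test and black bars are medians. Points of the members and of both splicing lists crowd around 0, and most points of the SR protein kinase list lie to the right of it.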

How the data were processed

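The authors deposited log2 ratios of the 2 channels for 16281 probes on 6 arrays. The base was read from the values. Scanner, background correction and normalization are not given in the sources used here. Deposited array medians were 0.0043 to 0.0159, so arrays were centred near 0 in an unknown way. Zeros were 8.99% to 23.9% of an array. Swapped arrays were sign-turned. A single symbol was annotated to 13738 probes, more than 1 to 52, and 2491 were unnamed. Identifiers of 13694 were found in RefSeq (GRCm38.p6), which changed 0 symbols. The 9968 probes with 1 symbol and all ratios were averaged to 8331 genes, set averages were tested with limma 3.58.1 (lmFit, eBayes, two-sided, 2 residual degrees of freedom, prior 4.08), and the code was tested on simulated data. The number of arrays limits precision.

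Members, lists and tests were chosen with earlier results of these data known. Named with values were members past the test, the highest and lowest of each family, and genes from 28 names fixed beforehand. Of these 28 names, 18 were in the fit and 4 were members outside it. Hnrnpll, Srsf7, Snrpb, Ddx17, Ddx58 and Ddx60 were not among the 63 members. Also to be named were incomplete members with a mean of at least 0.5 over 3 or more arrays (0 found), and up to 3 passing genes per other list. The 14 alternatives covered zeros, incomplete probes, probe choice, centring, quantile and spread scaling, single orientations, separate arrays with or without a set block, a robust prior and each set left out. The 10 LPS response genes served as a check on direction, and 10 of 10 rose, by 1.16 to 5.13.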

Additional observations from a re-analysis of the deposited data

How the results depend on the processing

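The reported 4 members higher became 2 with incomplete probes included, 1 with swapped arrays alone, and 1 to 3 with 1 set left out (1 without set 1), in each case from among the same 4. The 0 members lower became 1 with forward arrays alone (Snrpc, -0.31), where Srsf6 was among those higher, and 1 in the fits of 6 separate arrays (Srsf10), whether without a replicate block or with the set as a random replicate block. Those fits put 6 members higher, adding Srsf6 and Dhx33. In them 1439 genes passed without the block, which left the set numbers out, and 1340 with the block, which used them. The dye effect then passed in 3 members. All genes passing numbered 1097, against 522 with zeros kept as ratios, 598 with incomplete probes, 649 with swapped arrays alone and 499 to 832 with 1 set left out (499 without set 1). The median of the members was 0.01, and -0.0185 and 0.0598 with forward or swapped arrays alone. The SR protein kinase list had 5 higher, against 2 with zeros kept, with incomplete probes or with forward arrays alone, 3 with swapped arrays alone, and 2 to 4 with 1 set left out. Its 1 lower, Srpk2, became 0 with zeros kept, with incomplete probes, with 1 probe per gene (0.0642, the opposite sign), with swapped arrays alone and whichever set was left out. The causes were not tested. Fewer sets leave fewer degrees of freedom. Of 20 named members that did not pass, 12 changed sign under at least 1 setting. After removal of orientation means, same-numbered arrays correlated at -0.0077, -0.281 and -0.0943. Without intensities, what signal over background limits is unknown.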
